A study of Mus musculus with 72 samples.

Results

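The interferon-induced GTPases described here are 10 mouse genes of the immunity-related GTPase (IRG) and guanylate-binding protein (GBP) families: Irgm1, Irgm2, Igtp, Tgtp1, Tgtp2, Iigp1, Ifi47, Gbp2, Gbp3 and Gbp7. They were taken by name from a list chosen with earlier results of these data known. All 10 were found among the 35149 and 30901 genes of the lymph node input and polysomal count tables and the 35556 genes of each table of cultured lines. RNA came from Eμ-Myc B-lymphoma, a mouse lymphoma driven by a Myc transgene under the immunoglobulin heavy chain enhancer, with cells that also carried an MSCV Gfp vector. In the node study, C57BL/6 mice transplanted with clone 4242 received CX-5461 (35 mg/kg), everolimus (5 mg/kg), both drugs at these doses, or vehicle on day 10, and lymph nodes were taken 2 h later from 6 mice per group. In the line study, clone 107 was grown in mice that later relapsed under CX-5461, everolimus, both drugs or vehicle, and 3 early-passage lines per group were cultured from nodes taken at the endpoint, with those from vehicle mice called naive here. Cytoplasmic RNA (called input) was sequenced from every mouse and every line, as was polysomal RNA, pooled from gradient fractions with 4 or more ribosomes. CX-5461 inhibits RNA polymerase I, which transcribes ribosomal RNA genes, and everolimus inhibits the kinase complex mTORC1, which promotes translation.

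IRG and GBP proteins are large GTPases that cells make in response to interferon. They gather on vacuoles that hold intracellular bacteria or parasites and on bacterial surfaces, where they disrupt membranes and expose microbial products to inflammasomes. Irgm1, Irgm2 and Igtp (also called Irgm3) are regulators that sit on the cell's own membranes and hold the effector IRG proteins in an inactive state. The effectors here are Tgtp1 and Tgtp2 (Irgb6 proteins), Iigp1 (Irga6) and Ifi47 (Irgd). Interferon-gamma acts through gamma-activated sites (GAS) and type I interferon through interferon-stimulated response elements (ISRE), and genes of both families answer to both.

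Because the members moved together in nodes, the DNA before their start sites was read for these 2 elements. RefSeq starts on GRCm38.p6 were found for 9 of the 10 genes, and the 250 bases before each start were searched on both strands for the core of the ISRE (GAAA, any 2 bases, GAAA) and for GAS (TTC, any 3 bases, GAA). Of 32851 promoters, 2.98% held the first motif and 7.02% the second. The first motif was present before a start of 8 members: Irgm1, Irgm2, Igtp, Tgtp1, Tgtp2, Gbp2, Gbp3 and Gbp7. It was in neither the window of Ifi47 nor that of the other start of Gbp3. Irgm2, Igtp, Tgtp1, Tgtp2 and Gbp7 also held the GAS motif. The 60-base stretches below show the matches in capitals, with each gene's own strand read 5′ to 3′. In the GBP genes the ISRE core lies on the opposite strand and so reads TTTC, any 2 bases, TTTC.
Irgm1, chr11:48871421-48871480, minus strand: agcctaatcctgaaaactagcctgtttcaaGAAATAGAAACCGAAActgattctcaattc
Irgm2, chr11:58214888-58214947, plus strand: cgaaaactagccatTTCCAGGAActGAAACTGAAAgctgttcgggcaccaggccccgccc
Igtp, chr11:58199496-58199555, plus strand: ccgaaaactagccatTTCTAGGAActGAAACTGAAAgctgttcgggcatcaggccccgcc
Tgtp1, chr11:48992289-48992348, minus strand: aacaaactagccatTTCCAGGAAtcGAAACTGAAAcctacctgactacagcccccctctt
Tgtp2, chr11:49064248-49064307, minus strand: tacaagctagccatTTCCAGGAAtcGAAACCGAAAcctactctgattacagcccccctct
Gbp2, chr3:142620579-142620638, plus strand: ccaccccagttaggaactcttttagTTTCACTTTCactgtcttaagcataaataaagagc
Gbp3, chr3:142559977-142560036, plus strand: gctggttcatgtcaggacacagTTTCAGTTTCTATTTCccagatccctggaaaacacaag
Gbp7, chr3:142530258-142530317, plus strand: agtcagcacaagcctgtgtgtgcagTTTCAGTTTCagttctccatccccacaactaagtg
In Irgm2, Igtp, Tgtp1 and Tgtp2 both elements lie side by side, GAS first. The windows of Irgm2 and Igtp share an identical run of 55 bases, those of Tgtp1 and Tgtp2 one of 27 bases, and those of Irgm2 and Tgtp1 one of 20 bases. The 2 matches in Irgm1 overlap each other, as do those in Gbp3, and the GAS matches of Gbp7 lie outside the stretch shown. A match is a description of letters and does not show that a factor binds there.

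Tgtp1 and Tgtp2 are near-identical neighbours, which limits how well their reads can be assigned. On GRCm38 (GENCODE M21), Irgm1 (48861968 to 48871683, minus strand), Tgtp1 (48985327 to 48994172, minus), Tgtp2 (49057194 to 49064206, minus), Ifi47 (49076587 to 49096974, plus), Igtp (58199556 to 58207591, plus) and Irgm2 (58199618 to 58222782, plus) lie on chromosome 11. Gbp7 (142530342 to 142550149), Gbp3 (142560026 to 142573209) and Gbp2 (142620602 to 142638008) lie on the plus strand of chromosome 3, and Iigp1 (60376027 to 60392634) on that of chromosome 18. Of the 50-base windows of their exons, as long as a read, 81.2% in Tgtp1 and 86.6% in Tgtp2 occur in another gene, nearly all of them in each other. The shares were 12.7% in Gbp7, 11.8% in Igtp and 7.83% in Irgm2 and at most 4.81% in the other 5 genes. Igtp also overlaps the annotated span of Irgm2 on the same strand. Levels of Tgtp1 and Tgtp2 are therefore uncertain, and a change in 1 of them cannot be told from a change in the other.

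Library totals were 17.1 to 24.7 M counts in node input, 11.5 to 20.9 M in node polysomal RNA, 14.6 to 26 M in line input and 15.5 to 30.4 M in line polysomal RNA. In 3 node input libraries (CX-5461 mice 4 and 6 and everolimus mouse 2) 15% to 23.3% of counts fell on Gm26870 and Gm10800, and in 4 node polysomal libraries (vehicle mice 2, 5 and 6 and CX-5461 mouse 6) 10.1% to 26.2% fell on Lars2 and Yam1. In the line tables a new run of columns was taken to start where the alphabetical order of the column names starts again. No label says what such a run is. The polysomal libraries of CX-5461 lines 14 and 39 form a run of their own. They had 0.000819% and 0.000846% of counts on Gm26870 and Gm10800, against 0.00884% to 0.1% in the other 10. Calls among the 10 members that were lost when these libraries were left out are named beside the results. For the other gene lists such losses are given only in part. Levels are CPM (counts scaled to library size) with 1 set of scaling factors over the 36 libraries of a fraction, nodes and lines together. Each change is a log2 fold change ± SE by edgeR's quasi-likelihood test, called at a Benjamini-Hochberg adjusted p under 0.05 over all genes tested. Members of the B cell marker list, such as Cd79a, summed to 1220 to 1400 CPM in vehicle nodes and 1510 to 1840 CPM in naive lines.

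All 10 genes were expressed in lymphoma-bearing nodes without drug, at levels that ran from 1.04 to 18.5 CPM per kb of exon. In vehicle input, Ifi47 had the highest level per length, at 18.5 ± 2.31 CPM per kb (SD, n = 6 mice). Igtp followed at 7.96 ± 0.926 and Irgm1 at 7.15 ± 0.521 CPM per kb, which differed by less than their SDs together. Gbp2 was at 4.25 ± 0.583 and Irgm2 at 3.55 ± 0.478 CPM per kb. The counts assigned to Tgtp2 came to 2.84 ± 0.472 CPM per kb and those of Tgtp1 to 1.72 ± 0.297 CPM per kb. Gbp7 at 2.14 ± 0.201 and Gbp3 at 2.09 ± 0.132 CPM per kb did not differ beyond their spread, and Iigp1 was lowest at 1.04 ± 0.095 CPM per kb. The order in polysomal RNA was led by the same 3 genes, with Ifi47 at 22.4 ± 2.93, Irgm1 at 10.7 ± 1.13 and Igtp at 9.56 ± 1.32 CPM per kb.

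**Figure D1:**
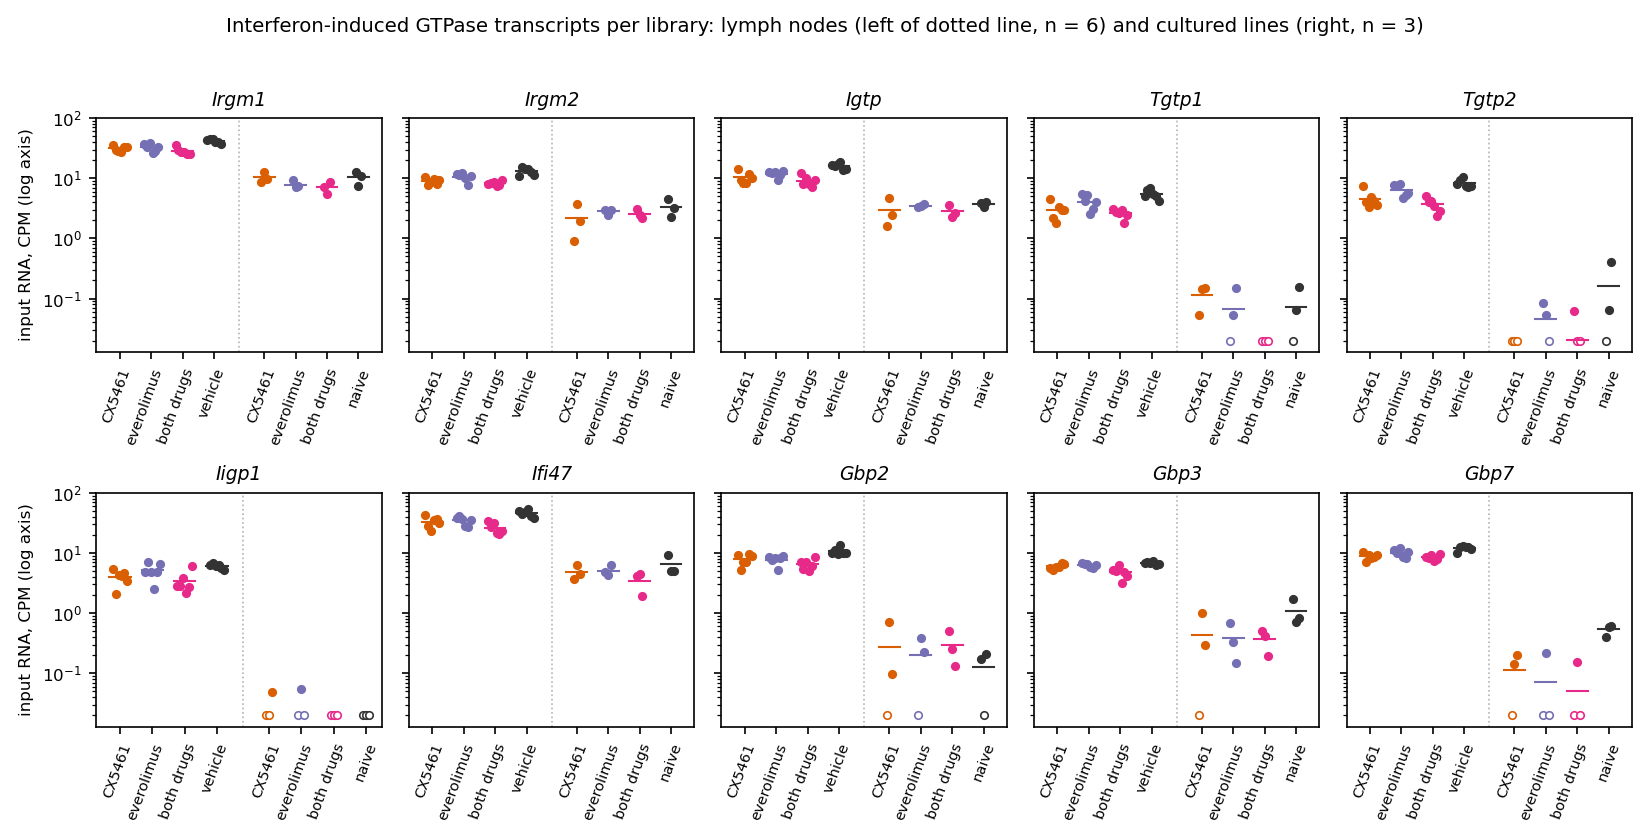
Input RNA of each gene in every library, in CPM on a log axis. Points are mice (left of the dotted line, 6 per group) or lines (right, 3 per group), short bars are group means, and open circles at the bottom mark libraries with 0 counts. Node libraries treated with both drugs lie below vehicle libraries for most genes, and the counts of Tgtp1, Tgtp2, Iigp1, Gbp2 and Gbp7 are at or near 0 in lines.

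Both drugs together lowered all 10 genes in node input RNA within 2 h. All 10 passed the test, against 4.17% of the 16055 genes tested that were lower, with a median log2 fold change of -0.70 beside -0.0015 over all genes. The members were chosen with earlier results of these data known, so this contrast is not independent support. Among the regulators, Irgm1, which restrains effector IRG proteins and is needed for control of mycobacteria in mice, was at 25, 26.8 and 35.9 CPM (lowest, median and highest of 6 mice) after both drugs, against 37.2, 41.5 and 45.2 CPM after vehicle. Every treated mouse was below every vehicle mouse, and the change was -0.49 ± 0.09 (adjusted p = 0.0039). Igtp was at 7.17, 8.75 and 12 CPM after both drugs, against 13.9, 16.3 and 18.6 CPM after vehicle, again without overlap, a change of -0.76 ± 0.12 (adjusted p = 0.00115). For Irgm2, a regulator that limits caspase-11 activity in mouse macrophages, the range was 7.34 to 9.23 CPM after both drugs and 10.8 to 15.3 CPM after vehicle, a change of -0.61 ± 0.11.

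Among the effectors, Tgtp2, which coats the parasite vacuole in mouse cells infected with Toxoplasma, was at 2.34, 3.78 and 5.15 CPM after both drugs, against 7.03, 7.79 and 10.6 CPM after vehicle. The groups did not overlap, and the change of -1.13 ± 0.19 (adjusted p = 0.00154) was the largest of the 10. Its near-identical neighbour Tgtp1 changed by -1.01 ± 0.20. Ifi47, the most abundant per length, was at 20.6, 25.1 and 33.7 CPM after both drugs, against 37.5, 46.2 and 53.2 CPM after vehicle, a change of -0.74 ± 0.13 (adjusted p = 0.00241). Iigp1, whose protein breaks open parasite vacuoles in mouse cells, was at 2.19, 2.81 and 5.96 CPM after both drugs, against 5.13, 6.18 and 6.76 CPM after vehicle. It changed by -0.77 ± 0.23 (adjusted p = 0.0409) and was the 1 gene whose groups overlapped. In all, 9 of 10 genes had groups that did not overlap, where 2.03% of 13565 genes were lower without overlap.

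The 3 GBP genes fell as well. Gbp2, which gathers on Toxoplasma vacuoles in mouse cells, was at 5.03, 6.59 and 8.5 CPM after both drugs, against 9.55, 9.98 and 13.4 CPM after vehicle, a change of -0.65 ± 0.15 (adjusted p = 0.0118). Gbp3 changed by -0.46 ± 0.11 (adjusted p = 0.0176). Gbp7, which in mice helps assemble the phagocyte oxidase, changed by -0.45 ± 0.10 (adjusted p = 0.0138). All 10 calls held under the 7 alternatives run for each gene in this comparison, with adjusted p up to 0.0497. In a whole node, fewer cells that express a gene and less of its RNA per cell cannot be told apart.

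**Figure D2:**
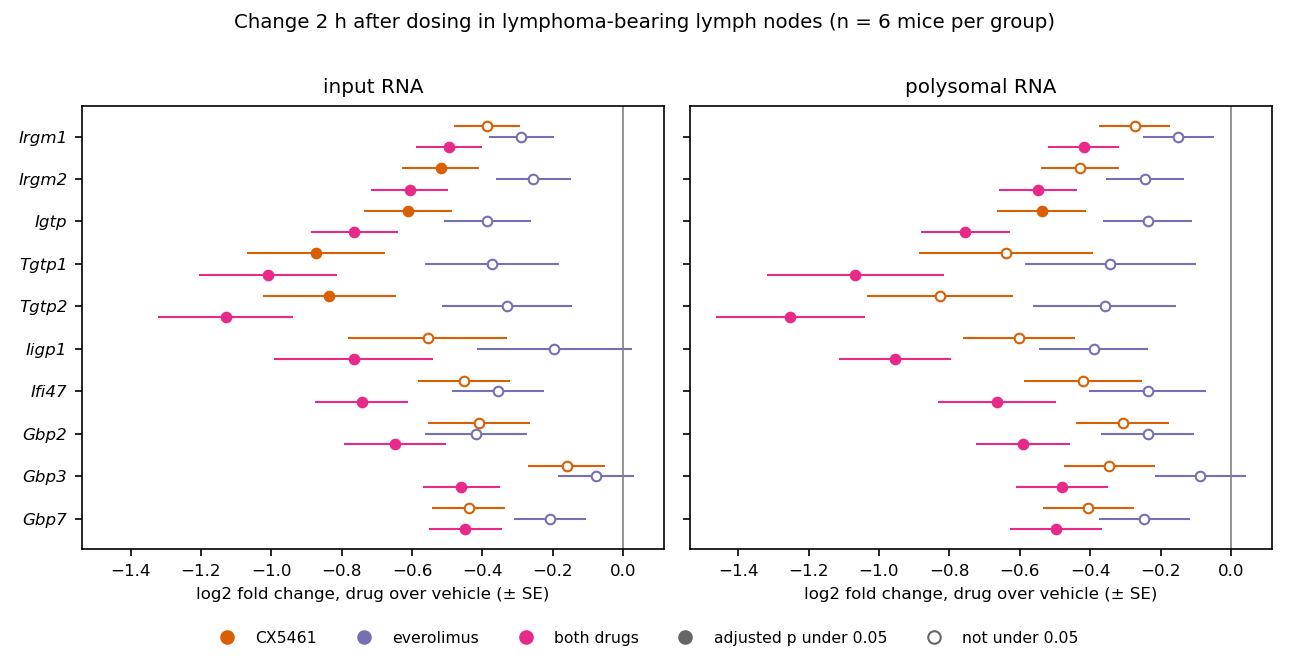
Log2 fold change over vehicle (points, with SE as bars) of each gene after CX-5461, everolimus and both drugs, in node input and polysomal RNA (n = 6 mice per group). Filled points have an adjusted p under 0.05. All estimates lie below 0, and the combination is filled for all 10 genes in both fractions.

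Polysomal RNA gave the same picture for the combination: all 10 genes fell, against 2.95% of 15374 genes that were lower, with a median of -0.63. Tgtp2 was at 4.1, 4.85 and 6.54 CPM after both drugs, against 10.1, 11.9 and 14.5 CPM after vehicle, a change of -1.25 ± 0.21 (adjusted p = 0.00236). Iigp1 was at 3.26, 4.11 and 5.51 CPM after both drugs, against 7, 8.01 and 9.7 CPM after vehicle, with no overlap, a change of -0.95 ± 0.16 (adjusted p = 0.00236). Igtp changed by -0.75 ± 0.13 and Ifi47 by -0.66 ± 0.17, and the smallest change was that of Irgm1, -0.42 ± 0.10 (adjusted p = 0.0203). For 7 of the 10 genes the groups did not overlap (1.13% of 13601 genes were lower without overlap), and Irgm1, Gbp3 and Gbp7 were the exceptions. When the 4 libraries with much Lars2 and Yam1 were left out, Gbp3 and Gbp7 no longer passed (adjusted p = 0.0737 and 0.0643), and the other 8 calls held.

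CX-5461 alone lowered 4 of the 10 genes in node input (0.386% of genes were lower), Irgm2, Igtp, Tgtp1 and Tgtp2, with a median over the 10 of -0.49. Igtp was at 8.31, 9.61 and 14.4 CPM after CX-5461, against 13.9, 16.3 and 18.6 CPM after vehicle, a change of -0.61 ± 0.12 (adjusted p = 0.0278). Irgm2 changed by -0.52 ± 0.11 (adjusted p = 0.0315). Tgtp1 changed by -0.87 ± 0.20 (adjusted p = 0.0455) and Tgtp2 by -0.83 ± 0.19 (adjusted p = 0.0483). Gbp7 (-0.44 ± 0.10, adjusted p = 0.0572) and Irgm1 (-0.39 ± 0.09, 0.0644) were just short of the threshold, and Gbp3 had the smallest estimate, -0.16 ± 0.11. In polysomal RNA, Igtp fell by 0.54 on the log2 scale (SE 0.13, adjusted p = 0.046), where 0.709% of genes were lower, and the other 9 genes did not pass, with estimates of -0.83 to -0.27. Without the input of CX-5461 mice 4 and 6 and everolimus mouse 2, 0 members passed in input (Igtp -0.53, adjusted p = 0.184). In that fit 1 of 16386 genes passed at all, so the 0 is not particular to the members. DESeq2 on all libraries called 6 members in input. In polysomal RNA 0 members passed without the 4 libraries with much Lars2 and Yam1 (Igtp -0.64, adjusted p = 0.187), where 1 of 15872 genes did. None passed without vehicle mouse 6 and combination mouse 3 either, and DESeq2 on all libraries called 4. Shares of all genes called by DESeq2 are not given here, so its counts have no background.

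After everolimus alone 0 of 10 genes passed in either fraction, by edgeR and by DESeq2, where edgeR called 0.106% of genes in input and 0.15% in polysomal RNA in either direction. At an unadjusted p under 0.05 there were 5 genes in input and 2 in polysomal RNA. The share of all genes at that level is not given here, so these counts have no background. All estimates were below 0, from -0.42 for Gbp2 to -0.08 for Gbp3 in input, with a median of -0.31, and from -0.39 for Iigp1 to -0.09 for Gbp3 in polysomal RNA. Igtp was at 9.53, 12.3 and 13.2 CPM after everolimus, against 13.9, 16.3 and 18.6 CPM after vehicle, so these groups did not overlap although the adjusted p was 0.213. Gbp2 was the other of 2 genes whose groups did not overlap (0.779% of 13599 genes were lower without overlap), at 5.15 to 8.75 CPM after everolimus and 9.55 to 13.4 CPM after vehicle (adjusted p = 0.23). The 3 drug groups share 1 vehicle group, so their changes are not independent.

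Directly compared with either drug alone, the combination gave 0 calls among the 10 genes by edgeR. Against CX-5461 the estimates were -0.30 (Gbp3) to -0.01 (Gbp7) in input, where 0.866% of all genes were called, and -0.43 to -0.09 in polysomal RNA, where 23.6% were. There were 2 genes in each at an unadjusted p under 0.05. Against everolimus they were -0.80 to -0.21 in input and -0.89 to -0.25 in polysomal RNA, with 9 genes in each at an unadjusted p under 0.05. Tgtp2 showed the largest difference from everolimus, -0.80 ± 0.19 in input and -0.89 ± 0.21 in polysomal RNA (adjusted p = 0.129 for both), where edgeR called 0% and 0.0195% of all genes. CX-5461 against everolimus gave 0 calls (0.473% and 8.2% of all genes were called in input and polysomal RNA), with 4 and 2 genes at an unadjusted p under 0.05. DESeq2 called 1 gene in input and 2 in polysomal RNA for the combination against everolimus and 0 in the other 4 comparisons. Neither the counts at an unadjusted p nor those of DESeq2 have a share over all genes beside them.

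The rest of the interferon programme moved with the 10 genes in part. After both drugs, 15 of 17 type I interferon targets fell in node input (median -0.80), where 4.17% of all genes were lower. Among them were the antiviral Ifit3 (-1.22 ± 0.18) and the ubiquitin-like Isg15 (-1.29 ± 0.20). Of 16 targets of interferon-gamma, 12 fell (median -0.44), with the class II genes H2-Aa (-0.58 ± 0.09) and H2-Eb1 (-0.54 ± 0.09) among those with the smallest p. Of 13 other interferon-induced GTPases tested, 6 fell, among them Gbp9 (-0.74 ± 0.13), Gbp6 (-0.85 ± 0.19) and the dynamin-like Mx2 (-0.86 ± 0.23). Upstream, 0 of 4 receptor subunits passed, and the ligands Ifng and Ifnb1 were not tested. Of 9 signalling genes 3 fell, among them the transcription factors Irf9 (-0.60 ± 0.10) and Stat2 (-0.34 ± 0.08). Of 6 inhibitors of the pathway, Usp18, which blocks the type I receptor, fell by 1.32 (SE 0.22). None of 10 genes of the ATG8 conjugation system, which guides these GTPases to vacuoles, passed (median -0.09), and 1 of 6 inflammasome genes did, the pore former Gsdmd (-0.31 ± 0.09). In polysomal RNA after both drugs, 14 of 17 type I targets, 7 of 16 interferon-gamma targets and 6 of 13 other GTPases fell, where 2.95% of all genes were lower. Gbp4 (-1.03 ± 0.15, adjusted p = 0.000903) was among these GTPases. In input after CX-5461 alone 6 of 17 type I targets, 5 of 16 interferon-gamma targets and 2 of 13 other GTPases fell, where 0.386% of genes were lower. Without the input of CX-5461 mice 4 and 6 and everolimus mouse 2, 0 genes of these 3 lists passed and 1 of 16386 genes did, with medians of -0.66, -0.39 and -0.55. After everolimus none of these lists had a call by edgeR. Ifng itself had 2 counts over the 6 vehicle input libraries.

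Markers of T and NK cells moved with the GTPases. After both drugs 6 of 10 T cell markers fell in input (median -0.72), where 4.17% of all genes were lower. Among them were Zap70 (-0.86 ± 0.11), Trbc2 (-0.97 ± 0.16) and Lat (-0.96 ± 0.17), and 3 of 7 NK markers fell. The 10 T cell markers summed to 63.1 to 92.8 CPM after both drugs (median 73.3), 65.4 to 78.5 CPM after CX-5461 (75), 69.1 to 102 CPM after everolimus (91.6) and 87.4 to 115 CPM after vehicle (94.9). These sums include Cd2, at 28.1 ± 2.7 CPM (SD) after both drugs and 29 ± 1.9 CPM after vehicle. Cd2 was also at 66.9 to 88.6 CPM in the input of naive lines, so the sums are not a measure of T cells alone. NK markers summed to 4.12 to 6.28 CPM after both drugs (median 4.71), 4.81 to 7.1 CPM after CX-5461 (5.3), 6.38 to 8.66 CPM after everolimus (7.54) and 6.72 to 10.6 CPM after vehicle (8.1). Of 8 myeloid markers 2 fell, Fcgr1 and Itgax, with sums of 325 to 390 CPM after both drugs and 349 to 435 CPM after vehicle. No B cell or stromal marker passed. No marker of these lists was at 0 in a node group. The share of reads outside genes was 11.5% to 19.7% after both drugs, 9.57% to 16.6% after CX-5461, 7.89% to 17.8% after everolimus and 6.07% to 14.9% after vehicle. The part of these differences in the fall of the GTPases was not tested.

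**Figure D3:**
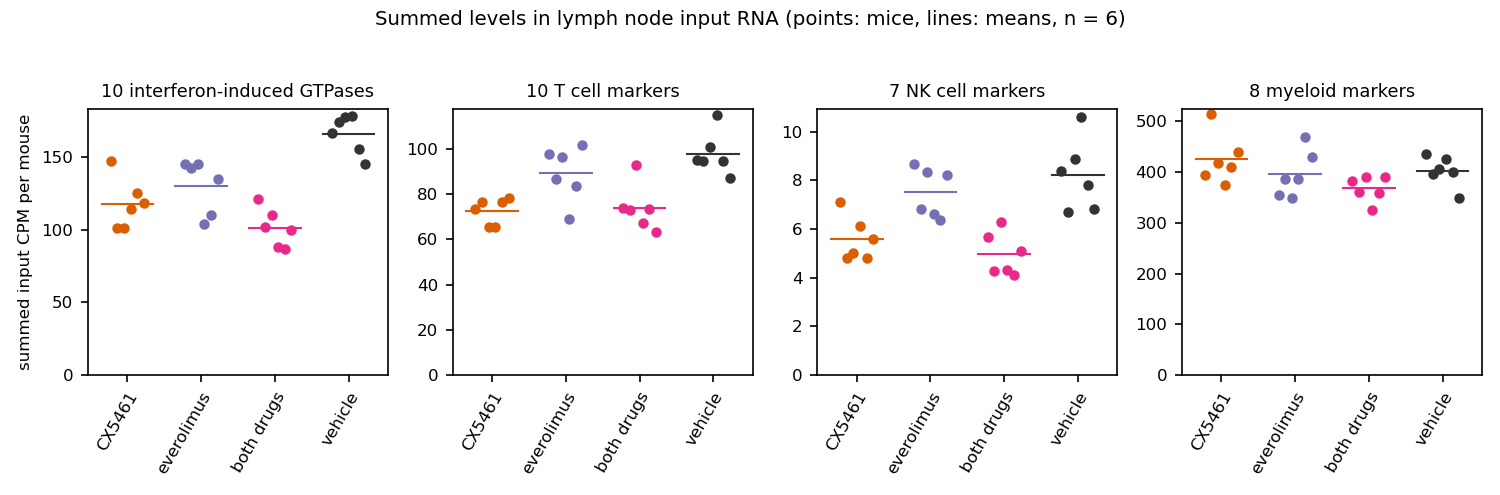
Summed input CPM of the 10 GTPases and of markers of T cells, NK cells and myeloid cells in each node library, with axes from 0. Points are mice, placed left to right by mouse number, and bars are group means. The T cell sum includes Cd2, which cultured lines also held. The median sums of the GTPases, T cell and NK cell markers are lower after CX-5461 and after both drugs than after vehicle, although several of these groups overlap the vehicle group.

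Cultured lines held far less of these transcripts than nodes, but not evenly so. In naive lines the sum of the 10 genes was 19.6 to 32.8 CPM in input, while in vehicle nodes it was 145 to 178 CPM. Only 5 genes, Irgm1, Irgm2, Igtp, Ifi47 and Gbp3, passed the filter on low counts in the line tables. All 5 were higher in vehicle nodes than in naive lines in both fractions. Of all genes that passed the same filter, 28.9% in input and 30.3% in polysomal RNA were higher in nodes. Without that filter the shares were 36.8% and 38.7%. The other 5 passed through the nodes alone, so they had to differ and are described by their counts. Nodes and lines differ in clone, in culture and in host cells, and these cannot be told apart.

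The 3 regulators had the smallest ratios between nodes and lines in input. Irgm1 was at 37.2, 41.5 and 45.2 CPM (lowest, median and highest) in vehicle node input and at 7.55, 10.9 and 12.9 CPM in the 3 naive lines, a difference of 1.91 ± 0.15 (adjusted p = 4.06e-07). Igtp was at 13.9, 16.3 and 18.6 CPM in vehicle nodes and at 3.29, 3.92 and 4.01 CPM in naive lines, a difference of 2.02 ± 0.15. Irgm2 differed by 1.91 ± 0.20. In scaled counts, node over line, these were 3.93-fold (95% counting interval 3.6 to 4.3) for Irgm1, 4.24-fold for Igtp and 3.91-fold for Irgm2. Ifi47 was at 37.5, 46.2 and 53.2 CPM in vehicle nodes and at 4.93, 5.1 and 9.28 CPM in naive lines, 7.05-fold. Gbp3 was 6.23-fold higher in nodes, at 0.71, 0.822 and 1.73 CPM in naive lines.

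The effectors Tgtp1, Tgtp2 and Iigp1 and the genes Gbp2 and Gbp7 were near 0 in lines. The 12 line input libraries together held 13 counts of Tgtp1, 12 of Tgtp2 and 2 of Iigp1, against 2000, 3030 and 2418 counts in the 24 node input libraries. In naive lines Tgtp2 had 0, 1 and 8 counts, and vehicle nodes had 48.6 times (25.5 to 107) as much when scaled. For Tgtp1 this ratio was 72 (28 to 265), for Gbp2 79.2 (38.3 to 197) and for Gbp7 22.5 (15.5 to 34). Iigp1 had 0 counts in the 3 naive lines in either fraction. With a floor of 3 counts over the group, it was at least 105-fold higher in vehicle nodes in input and at least 156-fold in polysomal RNA. The counting intervals do not cover differences between lines. Of the pathway, 7 of 17 type I targets passed the filter in the line input table alone, and all 7 were higher in vehicle nodes, where 28.9% of the 13797 genes that passed it were. Among them was the transcription factor Irf7, at 31.5 ± 3.44 CPM in vehicle nodes and 0.473 ± 0.156 CPM in naive lines. Of the 4 receptor subunits, Ifnar2 was higher in nodes (0.60 ± 0.14), at 21.1 to 26.6 CPM in vehicle nodes and 11.5 to 20.6 CPM in naive lines, and Ifngr2 was lower (-0.35 ± 0.09), at 28 to 32.9 CPM in vehicle nodes and 31 to 41.8 CPM in naive lines. The other 2 did not pass: Ifnar1 was at 38.6 to 46.7 CPM in vehicle nodes and 34.5 to 44.5 CPM in naive lines, and Ifngr1 at 38.9 to 45.2 CPM in vehicle nodes and 32.9 to 40.2 CPM in naive lines.

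**Figure D4:**
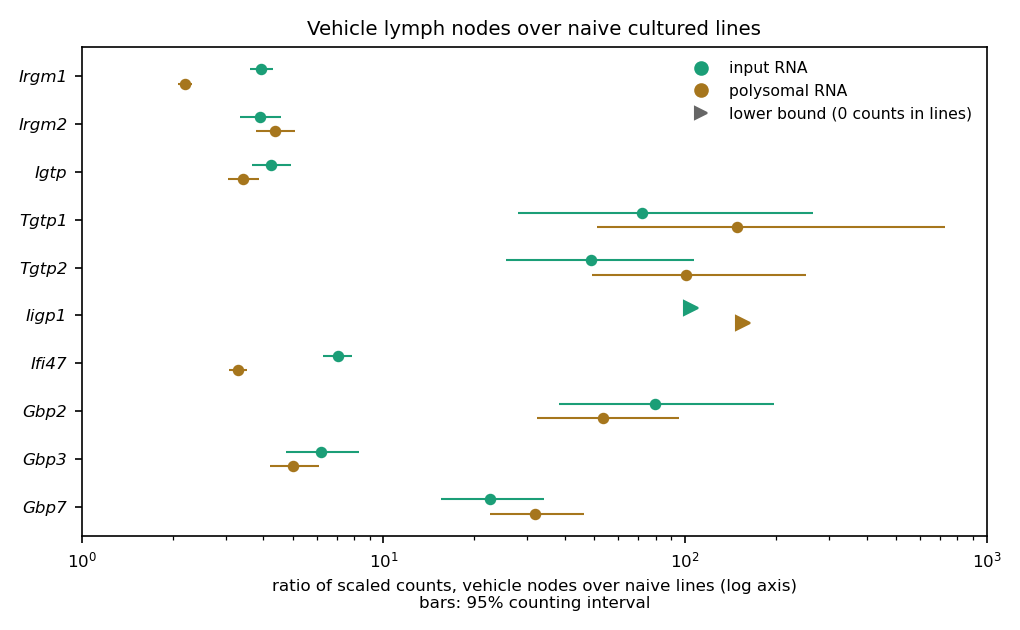
Ratio of scaled counts of vehicle nodes over naive lines for each gene, on a log axis, in input and polysomal RNA. Bars are 95% counting intervals and triangles are lower bounds for Iigp1, which had 0 counts in naive lines. Irgm1, Irgm2, Igtp, Ifi47 and Gbp3 lie below 10, and the other genes lie above 20.

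Summed marker RNA of myeloid, stromal and NK cells was higher in vehicle nodes than in naive lines, while the T cell sums overlapped. Myeloid markers summed to 349 to 435 CPM in vehicle nodes and 11 to 12.5 CPM in naive lines, where Lyz2 had 1 count in all. Stromal and endothelial markers summed to 943 to 1250 CPM in vehicle nodes and 34.6 to 51.5 CPM in naive lines, with Lum at 0. The T cell sum was 87.4 to 115 CPM in vehicle nodes and 75.8 to 94.1 CPM in naive lines, but in lines it was made up largely of Cd2, at 66.9 to 88.6 CPM, with Lat and Trbc2 at 0. NK markers summed to 6.72 to 10.6 CPM in vehicle nodes and 0.346 to 2.62 CPM in naive lines. How much of the difference in GTPases comes with these cells was not tested.

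Among the lines, 1 of the 5 genes that passed the filter was called in relapsed against naive lines, for both drugs in polysomal RNA only. That call was lost with no count filter and when most single lines were left out. In polysomal RNA, Irgm1 was at 21, 14.5 and 16 CPM in lines relapsed under both drugs (lines 8, 9 and 31), against 27.4, 28.9 and 28.3 CPM in naive lines (6, 33 and 38). The change was -0.70 ± 0.18 (adjusted p = 0.033, where 5.22% of 14797 genes were lower). The same gene was at 18, 25.4 and 19.6 CPM in lines relapsed under CX-5461 and 21.4, 18 and 18.3 CPM under everolimus. These changes did not pass (-0.42 ± 0.18 and -0.54 ± 0.18). Leaving out line 9 or 31 of the combination or any 1 naive line ended the Irgm1 call (0 genes called), while it held without line 8. In input RNA 0 of 5 genes passed in the 3 comparisons by edgeR and by DESeq2 (8.37%, 11.7% and 13.5% of genes were called for CX-5461, everolimus and both drugs), with 0, 0 and 2 genes at an unadjusted p under 0.05. Estimates there were -1.53 to -0.03, all below 0. Counts at an unadjusted p in this paragraph have no share over all genes beside them. In polysomal RNA 0 of 5 passed for CX-5461 (19.5% of genes called) and for everolimus (0.115%), with 1 gene in each at an unadjusted p under 0.05, and DESeq2 also called 0. Without CX-5461 line 20, which leaves only lines 14 and 39, all 5 genes passed in that comparison, 4 lower and 1 higher, but so did 58.8% of all genes. Polysomal over input did not pass in relapsed against naive lines for any of the 7 genes tested, by edgeR and by DESeq2, with 0 at an unadjusted p under 0.05.

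Iigp1 and the Tgtp genes were near 0 whichever drug the lymphoma had relapsed under. Tgtp2 input counts were 0 in all 3 CX-5461 lines, 1, 1 and 0 in everolimus lines and 1, 0 and 0 in combination lines, against 0, 1 and 8 in naive lines. Gbp7 had 0 to 4 counts in each of the 9 relapsed input libraries, against 7, 9 and 12 in naive ones, too few for the filter and so not tested. In polysomal RNA its counts overlapped, at 0 to 10 in relapsed lines and 6, 7 and 20 in naive lines.

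The last comparison was of polysomal with input RNA, which asks how much of a transcript sits on heavy polysomes. In vehicle nodes, Gbp3 (0.38 ± 0.08, adjusted p = 0.000392), Gbp7 (0.24 ± 0.07) and Irgm1 (0.19 ± 0.05) were higher in polysomal RNA relative to all genes. That is 3 of 10, where 24.7% of 16421 genes were higher, so the count is near the background. The other 7 did not pass, with estimates from -0.13 to 0.16. Without a block on the mouse, 1 of the 3 passed. No change of this balance under drug was detected in nodes: 0 of 10 genes passed for CX-5461, everolimus or both drugs by edgeR and by DESeq2, 0 had an unadjusted p under 0.05, and 0% of all genes passed by edgeR. Estimates for the combination were -0.15 to 0.08.

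In naive lines, Irgm1 (1.04 ± 0.17, adjusted p = 0.000549) and Ifi47 (1.03 ± 0.25, adjusted p = 0.00609) were higher in polysomal RNA. That is 2 of the 7 genes tested, where 23% of 15637 genes were higher, so the count is near the background. Irgm1 in the 3 lines was at 27.4, 28.9 and 28.3 CPM in polysomal RNA and 12.9, 7.55 and 10.9 CPM in input. Ifi47 was at 20.7, 15.1 and 15.3 CPM in polysomal RNA and 9.28, 5.1 and 4.93 CPM in input. The difference between settings was itself tested. Polysomal over input was lower in vehicle nodes than in naive lines by 0.75 ± 0.15 for Irgm1 (adjusted p = 0.00219) and by 1.03 ± 0.11 for Ifi47 (adjusted p = 4.48e-05). That is 2 of 10 genes, where 19% of 16863 genes were lower. However, 5 of the 10 passed the filter on low counts in the line tables, Irgm1 and Ifi47 among them. The other 5 were near 0 in lines and could hardly be called, so this count cannot be weighed against the background. Without vehicle mice 2, 5 and 6, Ifi47 still passed (-0.98 ± 0.14, adjusted p = 0.00873) and Irgm1 was just short of the threshold (-0.70 ± 0.21, adjusted p = 0.0502). Irgm2 (0.23 ± 0.22) and Igtp (-0.24 ± 0.13) did not pass. On polysomes, Irgm1 was 2.19-fold and Ifi47 3.29-fold higher in vehicle nodes in polysomal RNA, against 3.93-fold and 7.05-fold in input.

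**Figure D5:**
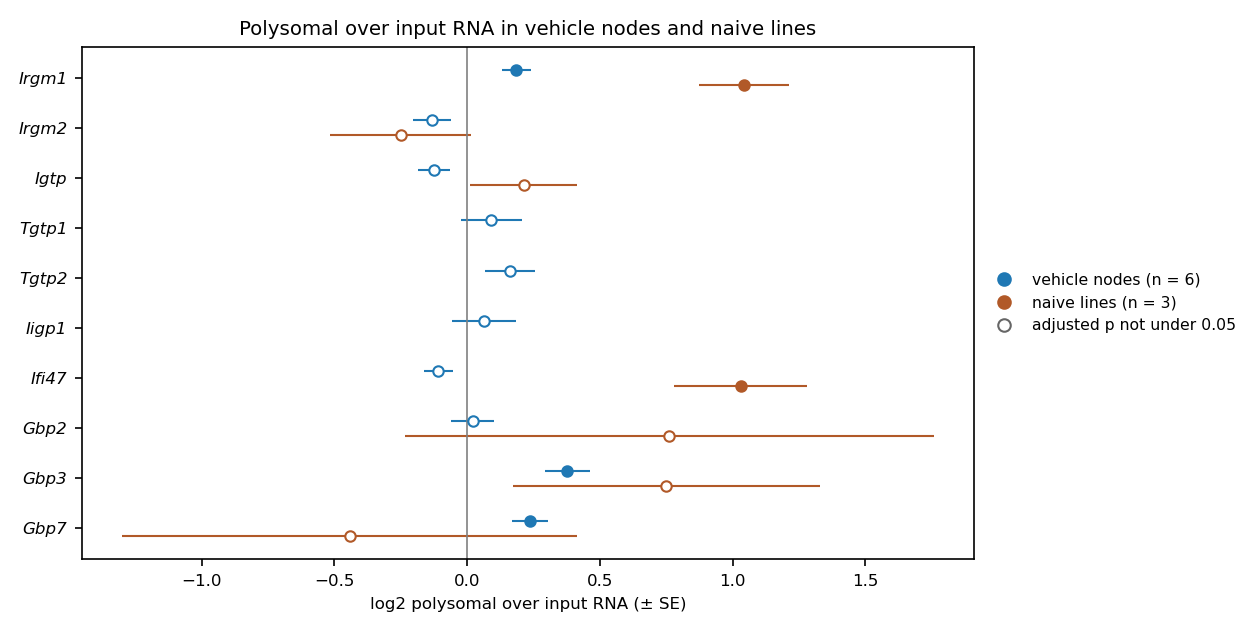
Log2 polysomal over input RNA (points, with SE as bars) of each gene in vehicle nodes and naive lines. Filled points have an adjusted p under 0.05, and Tgtp1, Tgtp2 and Iigp1 have too few counts in lines to be shown. Irgm1 and Ifi47 lie near 1 in lines and near 0 in nodes.

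Within treatment groups the 10 genes varied together from mouse to mouse. The 45 pairs had a median Pearson correlation of 0.457 over the 24 node input libraries (0.136 to 0.847) and 0.657 over the polysomal ones (0.208 to 0.922), after each group's mean was taken out. These correlations describe libraries that share depth and cell make-up, and no p is given. The genes outside the GTPase lists most like the mean of the members were Trim30a (0.866), Ifih1 (0.862), Ifit1 (0.842), Gm4955 (0.832) and Pydc3 (0.825) in node input, and Ifit3 (0.908), Ifit1 (0.902), Herc6 (0.896), Phf11d (0.884) and Rtp4 (0.882) in node polysomal RNA. Among the 5 members that passed the filter in lines, pair correlations were 0.114 to 0.9 over the 12 input libraries and -0.531 to 0.803 over the polysomal ones, where Ifi47 was negatively correlated with each of the other 4 (-0.0937 to -0.531). Over the 12 line input libraries, the genes most like the mean of the 5 members were Ppp1r21 (0.977), Prepl (0.952), Cacna1d (0.927), Ighv2-6 (0.923) and Pnp2 (0.922). None of them was on the node lists. Over the 12 line polysomal libraries they were RP23-322P13.2 (0.984), Gm20257 (0.974), F730311O21Rik (0.973), Gm5268 (0.972) and Gigyf2 (0.972). In the CX-5461 group the polysomal libraries of lines 14 and 39 stand apart from that of line 20. Ifi47 was at 17.4 CPM in line 20 and 22.6 CPM in lines 14 and 39. Gbp3 was at 3.18 CPM in line 20 and 0.242 to 0.466 CPM in lines 14 and 39. The part of this split in the line polysomal correlations was not tested.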

How the data were processed

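The authors deposited 4 tables of raw counts per gene symbol. Per the submitters' processing notes, TopHat2, HTSeq and GRCm38 were used; versions, annotation and strand handling are not given in the sources used here. Per the labels, libraries were ribodepleted and read as single-end 50 bp. Every sample column was used (0 left unused). Each line table holds 27 names turned into dates, which were tested but not named. Rows for reads outside genes (6.07% to 19.7% in node input) were left out of library sizes and tests.

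Each fraction of each setting was fitted with edgeR 4.0.16 (R 4.3.3; TMM, filterByExpr, quasi-likelihood, all 4 treatments). Nodes and lines were fitted together, over shared symbols (32150 in input, 29124 in polysomal RNA), for their comparison. Polysomal over input used a block on mouse or line, which the titles give. Each SE was taken from F, as the size of the log2 fold change divided by F's square root. Lengths are GENCODE M21 exon unions. Replicates are separate mice or lines per the labels, and p values measure the spread between them. Counting intervals and floors (95%, 3 counts) cover counting error only. The test was checked on simulated counts.

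Members and lists were chosen with earlier results of these data known. All 10 members are named whatever their result, of other lists at most 4 genes with the smallest adjusted p, and the 5 genes most like the members. Ifng, Ifnar1, Ifngr1, Cd79a and markers at or near 0 fall outside that rule and were chosen after their values were seen. Mice with the same number in different treatments did not deviate together (mean correlation 0.0115 in input, -0.0265 in polysomal RNA, 36 pairs each). An input library matched its own polysomal library best in 21 of 24 mice and 4 of 12 lines. Alternatives were DESeq2 1.42.0, RLE factors, no filter, only the groups compared, a replicate block or none, each line left out, and leaving out libraries that stand apart; the run of columns as a term, CX-5461 lines 14 and 39 left out, and polysomal over input without the mice whose libraries stand apart, were added after seeing the data.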

Additional observations from a re-analysis of the deposited data

Results flagged for a closer look

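Over the 10 genes and the 8 node groups of 6 mice, 3 of 80 combinations of gene and group had 1 library far from the other 5, where chance flags about 1 in 20. The 80 are not independent, since the genes vary together. Gbp2 was at 5.15 CPM in the input of everolimus mouse 4, with the other mice of that group at 7.49 to 8.75 CPM. Igtp was at 15.2 CPM in the polysomal RNA of combination mouse 1, above the other 5 at 9.75 to 11.7 CPM. Iigp1 was at 3.71 CPM in the polysomal RNA of CX-5461 mouse 2, below the other 5 at 5.37 to 6.27 CPM.

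The balance of polysomal over input RNA differed between vehicle nodes and naive lines for 2 of the 10 genes, by the test of the difference itself. Of all genes, 19% were lower in nodes. The count cannot be weighed against that share, because 5 of the 10 were near 0 in lines and could hardly be called. The difference was -0.75 ± 0.15 for Irgm1 and -1.03 ± 0.11 for Ifi47 on the log2 scale, lower in nodes. Leaving out each naive line in turn gave 2 or 3 genes, and leaving out vehicle mice 2, 5 and 6 gave 1, Ifi47.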

How the results depend on the processing

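No member's change reversed under any alternative run. For both drugs against vehicle in nodes, all 10 genes were called under each alternative in input, and 8 to 10 in polysomal RNA. CX-5461 against vehicle had 4 genes in input and 1 with only the 2 groups in the fit. It had 0 when libraries with much Gm26870 and Gm10800 were dropped, where 1 of 16386 genes passed. In polysomal RNA it had 1 gene, 4 with DESeq2, 3 with only the 2 groups and 2 with the replicate block. It had 0 without vehicle mouse 6 and combination mouse 3. It also had 0 when libraries with much Lars2 and Yam1 were dropped, where 1 of 15872 genes passed. The replicate numbers do not pair the mice, and the replicate block changed no other count by over 1.5 times. Both drugs against everolimus had 0 genes, and 1 in input and 2 in polysomal RNA with DESeq2. Both drugs against CX-5461 had 0 in input, and 1 without vehicle mouse 6 and combination mouse 3. Polysomal over input in vehicle nodes had 3 genes, and 1 with no replicate block. The difference in polysomal over input between vehicle nodes and naive lines had 2 genes, and 1 when mice with much Lars2 and Yam1 were dropped (chosen after seeing the data).

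In lines, both drugs against naive in polysomal RNA had 1 gene, 2 with DESeq2 or with only the 2 groups, 0 with no count filter, 3 with the run of columns as a term or without CX-5461 lines 14 and 39 (both chosen after seeing the data), and 0 to 1 when single lines were left out. With the run of columns as a term there was 1 gene for both drugs in input and 1 for everolimus in polysomal RNA, against 0. CX-5461 against naive had 0 genes, and 0 to 5 in polysomal RNA and 0 to 1 for polysomal over input when single lines were left out, with both highest values without line 20. The cause of these changes was not tested. Where a group was left with 2 lines, the fit pooled the spread over all groups. Of the 10 members, 5 had too few counts for a test between lines in input or polysomal RNA, and 3 for polysomal over input in lines.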
